A study of Mus musculus with 35 samples.

Results

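The nuclear oxidative phosphorylation genes are the nuclear genes that encode the subunits of respiratory complexes I to V, together with somatic cytochrome c, Cycs. They were chosen by a rule on subunit symbols, with earlier results of these data known. The list matched 87 of the 55487 gene IDs in the deposited tables, 86 symbols in all, because Atp5o is listed under a second, overlapping ID. Complex I had 35 members, complex II 4, complex III 9, complex IV 20 and complex V 18. A filter on low counts kept 83 members in the RNA and 81 in the footprints. The members that did not pass in RNA were Cox7b2, Cox8b, Cox8c and Ndufa4l2, and those that did not pass in footprints were Cox4i2, Cox6a2, Cox7a1, Cox7b2, Cox8b and Cox8c.

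The study measured mouse MLL-AF9 acute myeloid leukemia in bone marrow by RNA sequencing and by ribosome footprinting, which sequences the stretches of mRNA covered by translating ribosomes. All mice were male recipients aged 8 to 10 weeks that received 1000000 GFP+ MLL-AF9 cells intravenously, and all of those cells descend from 1 terminally ill mouse, so the leukemia is a single line. The cells carried a guide against Ogfod1 (sgOgfod1), the gene of a prolyl hydroxylase that acts on a protein of the small ribosomal subunit, or a non-targeting guide (sgScramble). The treated mice ate a diet free of branched-chain amino acids and were given intraperitoneal cytarabine at 100 mg/kg on each of 5 days with doxorubicin at 3 mg/kg on the first 3 of them. The vehicle mice ate the standard amino acid diet and were injected with PBS, so diet and chemotherapy cannot be told apart. Viable GFP+ cells were sorted from marrow at the time of maximum response to the chemotherapy. RNA libraries came from 6 treated sgOgfod1 mice, 7 treated sgScramble mice, 5 vehicle sgOgfod1 mice and 5 vehicle sgScramble mice. Footprint libraries came from 2 treated sgOgfod1 mice, 4 treated sgScramble mice, 3 vehicle sgOgfod1 mice and 3 vehicle sgScramble mice, and all 12 of these mice also had an RNA library.

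Oxidative phosphorylation takes place in the inner mitochondrial membrane. Complexes I and II pass electrons from NADH and succinate to ubiquinone, complex III passes them to cytochrome c, and complex IV passes them to oxygen. Complexes I, III and IV pump protons as they do so, and complex V, the ATP synthase, lets the protons flow back to make ATP. Complex II is built from nuclear genes alone, whereas the other complexes combine nuclear subunits with subunits made inside the mitochondrion from mitochondrial DNA. The core subunits of complex I carry its redox centres or proton channels, and its accessory subunits surround that core. Respiration is of interest in this leukemia because residual acute myeloid leukemia cells after cytarabine have been described as dependent on it.

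RNA libraries held 31921768 to 142694163 gene counts and footprint libraries 5705585 to 14642692 gene counts. The members took 1.06 to 1.83% of the RNA counts and 0.465 to 0.549% of the footprint counts. Ogfod1, the targeted gene, had 3.75 to 13.0 CPM (counts per 1000000 counts in the library, scaled by TMM) in RNA of treated sgOgfod1 mice, against 12.3 to 31.6 CPM in treated sgScramble mice, and 8.57 to 11.7 CPM in vehicle sgOgfod1 mice, against 19.7 to 24.9 CPM in vehicle sgScramble mice. In footprints it had 1.44 to 2.91 CPM in treated sgOgfod1 mice, against 12.4 to 17.5 CPM in treated sgScramble mice, and 1.67 to 2.98 CPM in vehicle sgOgfod1 mice, against 13.7 to 15.5 CPM in vehicle sgScramble mice. A pair of RNA libraries stood apart from the rest of their groups, treated sgScramble replicate 4 and treated sgOgfod1 replicate 3, and both had the highest summed member levels of their groups. By the library numbers in the labels, all vehicle libraries are numbered 10 or lower, whereas 5 treated sgScramble and 3 treated sgOgfod1 RNA libraries are numbered 17 or higher.

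Promoters of 67 of the 87 members were matched in the RefSeq table for build GRCm38.p6, each running from 250 bases before the start of the gene to 50 bases after it. They were searched on both strands for CGCANGCGC, a core of the site of NRF1, and for CCGGAAGT, a core of the site of GABPA, which are known activators of respiratory genes. An NRF1 match stood in 24 of the 67 member promoters, 35.8%, against 7.12% of the promoters of 27025 genes. By complex, the match was present in 8 of 13 promoters for complex V, 3 of 5 for complex III, 2 of 3 for complex II, 9 of 31 for complex I and 1 of 14 for complex IV. A GABPA match stood in 5 of the 67, 7.46%, against 4.31% of all genes. The following 5 promoters are printed with the NRF1 matches in capitals because they belong to members described below: Ndufa12 and Atp5k, which passed the test in both RNA and footprints, Ndufb4, which passed in RNA, and Sdha and Cycs, which passed in neither. In Atp5k the capitals cover a pair of overlapping matches on opposite strands.
Ndufa12, chr10:94198785-94199084, plus strand: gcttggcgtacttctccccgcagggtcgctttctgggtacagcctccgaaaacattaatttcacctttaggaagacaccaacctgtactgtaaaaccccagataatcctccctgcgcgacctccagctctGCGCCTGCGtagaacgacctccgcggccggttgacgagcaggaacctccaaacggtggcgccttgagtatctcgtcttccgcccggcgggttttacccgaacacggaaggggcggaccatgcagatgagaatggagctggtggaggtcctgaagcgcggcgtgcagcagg
Atp5k, chr5:108434350-108434649, minus strand: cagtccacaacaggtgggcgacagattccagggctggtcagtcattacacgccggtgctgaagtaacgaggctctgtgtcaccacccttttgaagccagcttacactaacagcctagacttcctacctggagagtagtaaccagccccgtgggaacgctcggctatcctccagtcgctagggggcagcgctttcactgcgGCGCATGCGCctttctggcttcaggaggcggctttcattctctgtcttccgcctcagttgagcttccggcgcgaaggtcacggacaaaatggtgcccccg
Ndufb4, chr16:37654319-37654618, minus strand: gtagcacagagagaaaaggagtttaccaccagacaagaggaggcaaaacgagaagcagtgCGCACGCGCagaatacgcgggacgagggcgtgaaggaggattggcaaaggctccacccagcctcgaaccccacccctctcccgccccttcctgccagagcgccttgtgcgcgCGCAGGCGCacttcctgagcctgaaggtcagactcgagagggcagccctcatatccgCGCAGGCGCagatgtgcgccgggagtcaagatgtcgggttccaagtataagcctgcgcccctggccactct
Cycs, chr6:50566520-50566819, minus strand: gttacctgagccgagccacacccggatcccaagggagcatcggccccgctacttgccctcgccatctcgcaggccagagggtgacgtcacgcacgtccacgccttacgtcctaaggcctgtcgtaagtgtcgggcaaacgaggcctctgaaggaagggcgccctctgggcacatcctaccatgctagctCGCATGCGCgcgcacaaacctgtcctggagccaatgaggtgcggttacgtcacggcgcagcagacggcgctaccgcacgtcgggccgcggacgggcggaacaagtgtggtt
Sdha, chr13:74350191-74350490, minus strand: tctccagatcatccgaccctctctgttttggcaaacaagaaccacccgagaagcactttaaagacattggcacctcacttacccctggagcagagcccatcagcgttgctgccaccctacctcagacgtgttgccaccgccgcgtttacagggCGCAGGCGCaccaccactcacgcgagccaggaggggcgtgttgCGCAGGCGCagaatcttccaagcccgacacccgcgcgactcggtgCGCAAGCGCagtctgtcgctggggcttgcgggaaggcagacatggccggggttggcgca

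In sgScramble leukemia, RNA of some respiratory subunits rose under treatment, 9 of them accessory subunits of complex I. Of 83 members tested, 19 rose and 0 fell at an adjusted p under 0.05 by edgeR's quasi-likelihood test with Benjamini-Hochberg adjustment over all 21474 genes. The share that rose was 22.9%, beside 8.6% of all genes tested and 11.1% of protein-coding genes; 4.34% of all genes fell. Among genes with a coding length of 294 to 618 bases, the middle range of the members, 24.4% of 41 members rose with a median log2 difference of 0.40, against 17.1% of 1779 other protein-coding genes with a median of 0.24. The median member difference was 0.40 on the log2 scale, against -0.01 over all genes, and 79 of 83 members had a positive difference. In these bulk samples, fewer cells of a type and less RNA per cell cannot be told apart. The count rested on single libraries: it was 9 without vehicle replicate 1, 9 without vehicle replicate 3, 6 without vehicle replicate 4 and 8 without vehicle replicate 5, all sgScramble. It was 34 without treated sgScramble replicate 3, 12 without treated sgScramble replicate 4 and 38 without treated sgOgfod1 replicate 3, which enters through the shared estimate of spread. A term for library numbers from 17 up left 4 calls, Ndufv3, Ndufb7, Atp5e and Ndufa11. No vehicle library is numbered 17 or higher, so with this term the difference rests mainly on treated libraries numbered below 17. Library order and treatment cannot be told apart.

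**Figure D1:**
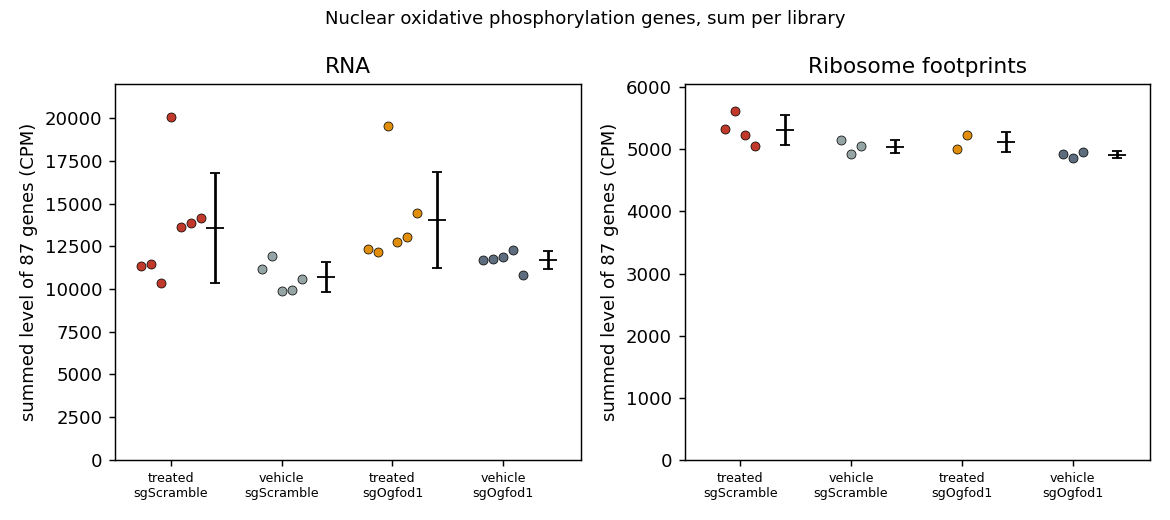
Summed level of all members in every library, in CPM on the vertical axis, for RNA and for footprints; each point is 1 mouse and the bar beside each group is its mean ± SD. In RNA, treated sgScramble libraries lay between 10360 and 20087 CPM, against 9868 to 11970 CPM in vehicle sgScramble libraries, and in footprints between 5054 and 5623 CPM, against 4931 to 5154 CPM.

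The summed RNA level of all members averaged 13558 ± 3229 CPM in treated sgScramble mice (SD, n = 7), against 10706 ± 881 CPM in vehicle sgScramble mice (SD, n = 5). The 2 groups overlapped, and treated sgScramble replicate 4 stood highest at 20087 CPM. In sgOgfod1 leukemia the sum averaged 14058 ± 2800 CPM in treated mice (SD, n = 6), against 11691 ± 534 CPM in vehicle mice (SD, n = 5), with replicate 3 highest at 19531 CPM.

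In complex I, 9 of 35 members rose in sgScramble RNA, all 9 of them among the 28 accessory subunits. The accessory median was 0.53 on the log2 scale, against 0.25 for the 7 core subunits. Ndufv3, an accessory subunit beside the flavin-carrying tip where NADH is oxidised, had 72.4, 88.9 and 178 CPM as the lowest, median and highest of 7 treated sgScramble mice, against 54.2, 59.8, 55.4, 54.5 and 51.5 CPM in the 5 vehicle sgScramble mice. All treated libraries were above all vehicle libraries. Its log2 difference was 0.87 ± 0.20 (SE) with an adjusted p of 0.00544. Ndufb7, an accessory subunit of the membrane arm, had a lowest, median and highest level of 55.4, 72.4 and 133 CPM in treated sgScramble mice, against 59.6, 43.7, 50.3, 48.3 and 42.6 CPM in vehicle sgScramble mice. Here the groups overlapped, and the log2 difference was 0.67 ± 0.19 with an adjusted p of 0.0197. Ndufc1, another small membrane-arm subunit, had a lowest, median and highest level of 62.4, 77.6 and 158 CPM in treated sgScramble mice, against 45.2, 70.4, 55, 45.9 and 60.2 CPM in vehicle sgScramble mice, with overlap and a log2 difference of 0.68 ± 0.20 (adjusted p = 0.0243). The other accessory subunits that rose were Ndufa8 (log2 difference 0.76), Ndufa13 (0.82), Ndufb4 (0.69), Ndufb9 (0.66), Ndufa12 (0.64) and Ndufa11 (0.54). Among core subunits, Ndufs1, the largest iron-sulphur subunit, had a log2 difference of -0.04 (adjusted p = 0.854) and Ndufv1, which binds the flavin and NADH, 0.28 (adjusted p = 0.246).

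In complex II, 1 of 4 members rose in RNA. This was Sdhc, a membrane anchor, with a lowest, median and highest level of 64.3, 78.3 and 112 CPM in treated sgScramble mice, against 63.7, 62.9, 60.1, 63.5 and 64.5 CPM in vehicle sgScramble mice. The groups overlapped at the low end, and the log2 difference was 0.42 ± 0.13 with an adjusted p of 0.0331. Sdha, the flavoprotein that oxidises succinate, had a log2 difference of -0.13 (adjusted p = 0.459), Sdhb, the iron-sulphur subunit, 0.38 (adjusted p = 0.261) and Sdhd, the other membrane anchor, 0.31 (adjusted p = 0.0921).

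In complex III, 2 of 9 members rose in RNA. Uqcrq, a small structural subunit, had a lowest, median and highest level of 73.2, 99.3 and 198 CPM in treated sgScramble mice, against 62.9, 74.5, 64.8, 58.7 and 57 CPM in vehicle sgScramble mice. The groups overlapped, and the log2 difference was 0.77 ± 0.20 with an adjusted p of 0.0139. Cyc1, the heme-bearing cytochrome c1, had a log2 difference of 0.50 ± 0.16 (adjusted p = 0.0427). Uqcrfs1, the Rieske iron-sulphur protein, had a difference of 0.31 (adjusted p = 0.187). Cycs, the electron carrier between complexes III and IV, had a difference of 0.23 (adjusted p = 0.43).

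In complex IV, 4 of 16 members tested rose in RNA. Mitochondrial DNA encodes the catalytic core of this complex, so every nuclear member lies outside that core. Cox5a had a lowest, median and highest level of 260, 294 and 593 CPM in treated sgScramble mice, against 229, 234, 193, 183 and 221 CPM in vehicle sgScramble mice. No treated library lay within the vehicle range, and the log2 difference was 0.66 ± 0.18 with an adjusted p of 0.0183. The others were Cox6b1 (log2 difference 0.63), Cox7a2 (0.55) and Cox6c (0.51). Cox4i1, the widespread isoform of subunit IV, had a difference of 0.44 (adjusted p = 0.115).

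In complex V, 3 of 18 members rose in RNA. Atp5e, the epsilon subunit of the central stalk, had a lowest, median and highest level of 57.8, 80.6 and 133 CPM in treated sgScramble mice, against 55.1, 58.4, 50.1, 44 and 41.7 CPM in vehicle sgScramble mice. The groups overlapped narrowly, and the log2 difference was 0.76 ± 0.18 with an adjusted p of 0.00762. Atp5k, the e subunit at the dimer interface, rose by 0.67 ± 0.20 (adjusted p = 0.0264), and Atp5g1, which encodes subunit c of the membrane ring, by 0.60 ± 0.18 (adjusted p = 0.0307). The catalytic-head subunits Atp5b and Atp5a1 had differences of 0.09 (adjusted p = 0.625) and 0.16 (adjusted p = 0.337).

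**Figure D2:**
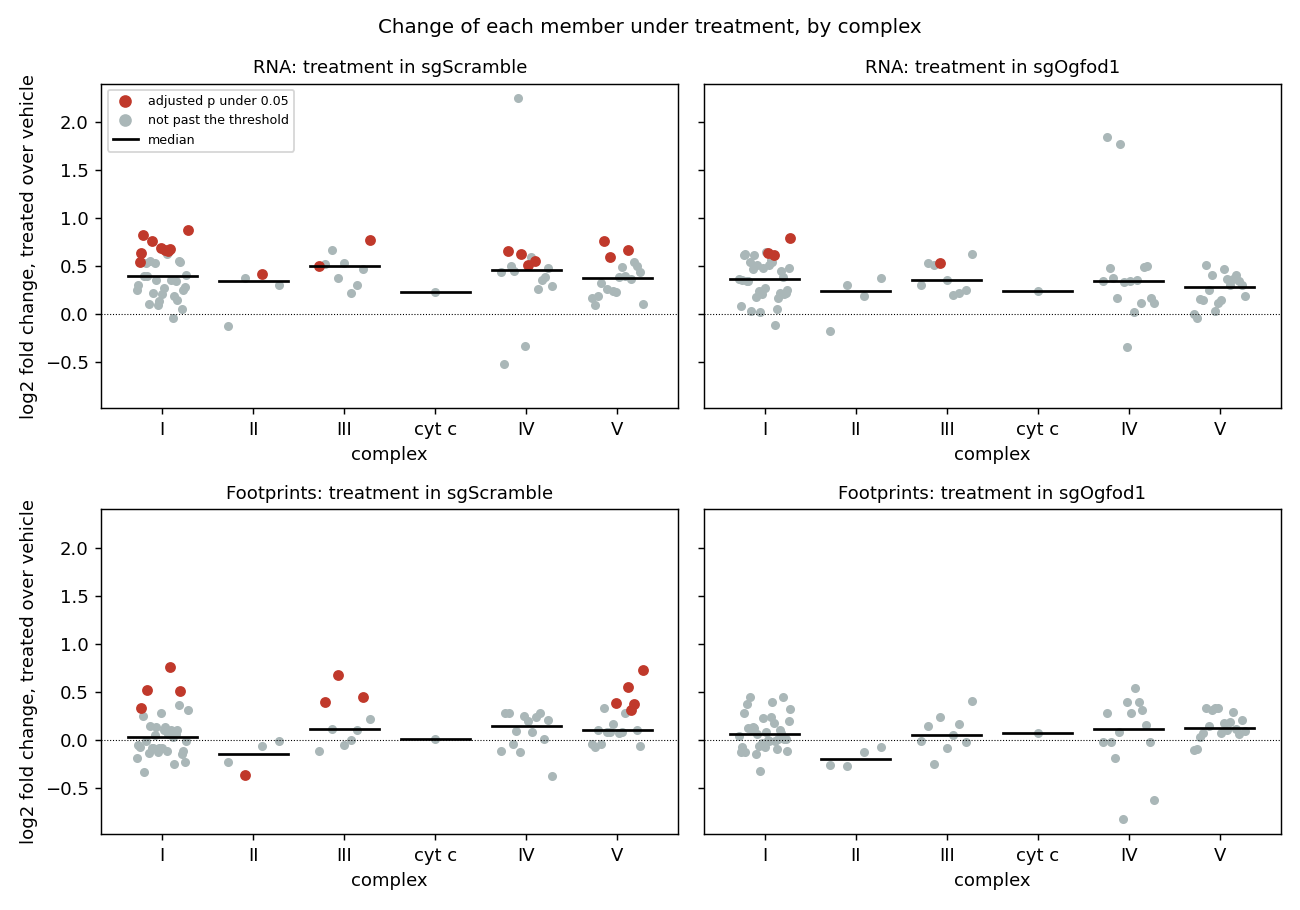
Log2 difference between treated and vehicle mice for every member tested (points), by complex along the horizontal axis, in RNA and footprints of each genotype; red points passed an adjusted p of 0.05 by edgeR and black lines are medians. In sgScramble RNA, complex medians lay between 0.34 and 0.50 and Cycs at 0.23, and in sgScramble footprints the complex II median was -0.15.

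In sgOgfod1 leukemia, 4 of 83 members rose in RNA and 0 fell, 4.82% beside 5.69% of all genes that rose and 4.18% that fell. Among genes of 294 to 618 coding bases, 7.32% of 41 members rose, with a median of 0.38, against 11.8% of 1779 other protein-coding genes, with a median of 0.24. The count of 4 depended on the setting: it was 9 over protein-coding genes alone, 11 with the compared groups alone, 15 with DESeq2, 19 without the pair of libraries that stood apart, 1 with the coding-length trend removed and 0 in mice with a footprint library. The median member difference was 0.35 against -0.002 over all genes, and 79 of 83 members had a positive difference. Ndufv3 had a lowest, median and highest level of 76.3, 97.1 and 171 CPM in the 6 treated sgOgfod1 mice, against 61.2, 67.7, 67.6, 55.8 and 52.7 CPM in the 5 vehicle sgOgfod1 mice, with no overlap. Its log2 difference was 0.80 ± 0.21 with an adjusted p of 0.015. The others were Ndufc2, a membrane-arm subunit (0.62 ± 0.18, adjusted p = 0.0279), Ndufb7 (0.64 ± 0.19, adjusted p = 0.0374) and Uqcrb, a small complex III subunit near a ubiquinone site (0.53 ± 0.16, adjusted p = 0.0419). Ndufv3 and Ndufb7 passed in both genotypes. The count was 1 without any of vehicle sgOgfod1 replicates 1, 2, 3 and 4 and without treated sgOgfod1 replicate 3, and 2 without treated sgOgfod1 replicate 6. It was 8 without treated sgOgfod1 replicate 1, 7 without treated sgOgfod1 replicate 4 and 22 without treated sgScramble replicate 4. With a term for library numbers from 17 up it was 2.

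**Figure D3:**
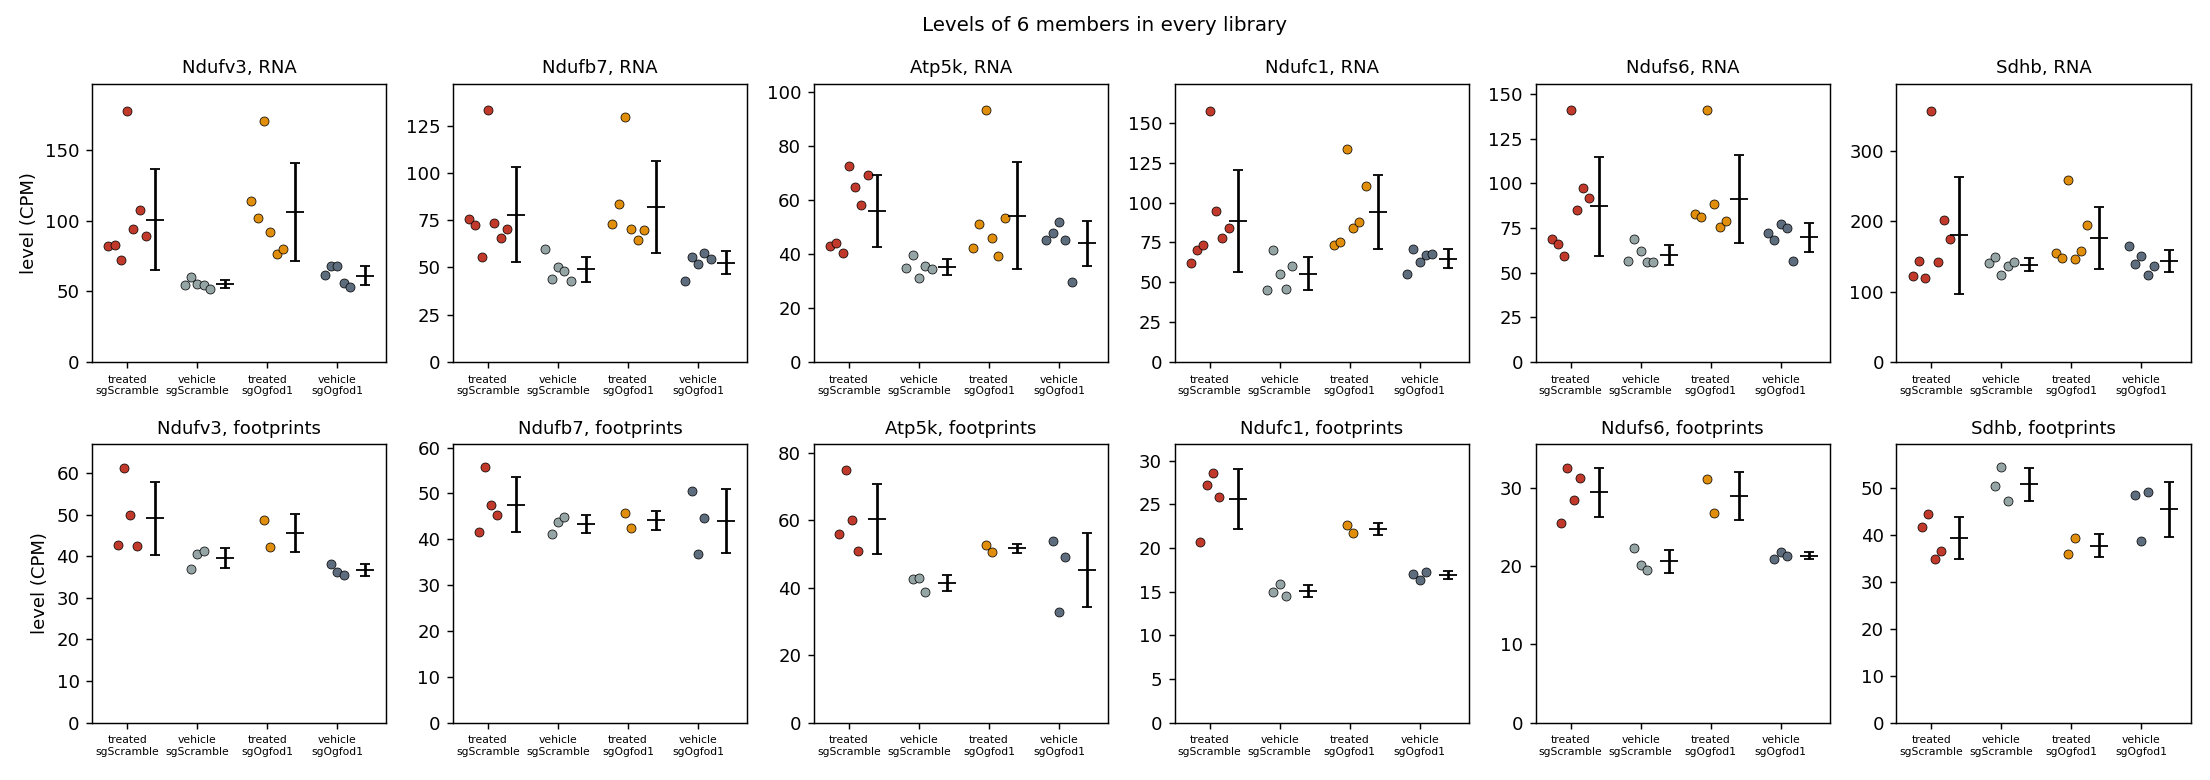
Levels of 6 members in every library, in CPM on the vertical axis, RNA above footprints, with treated left of vehicle in each genotype; points are mice and the bar beside each group is its mean ± SD. Ndufv3 RNA lay at 72.4 to 178 CPM in treated sgScramble mice, against 51.5 to 59.8 CPM in vehicle mice, and Sdhb footprints at 34.7 to 44.4 CPM, against 47.3 to 54.4 CPM.

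In footprints of sgScramble leukemia, subunits of complexes I, III and V rose and the complex II subunit Sdhb fell. Of 81 members tested, 12 rose, 14.8% beside 8.12% of all 18290 genes tested, and 1 fell, 1.23% beside 7.44% of all genes. The median member difference was 0.08 on the log2 scale, against -0.01 over all genes. Complex V had 5 members that rose, complex I 4, complex III 3, and complexes II and IV none. Atp5k, Ndufa12 and Ndufc1 passed in both RNA and footprints. The sets of mice differed, with 7 treated and 5 vehicle sgScramble mice in RNA, against 4 and 3 in footprints. Leaving out single libraries moved the count of 13 calls to 6 without vehicle sgScramble replicate 2, to 4 without any of vehicle sgScramble replicates 3 and 5 and treated sgScramble replicate 3, and to 5 without treated sgScramble replicate 2. It was 7 without vehicle sgOgfod1 replicate 3 or replicate 5, which enter through the shared estimate of spread.

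Ndufc1 footprints were at 20.7, 27.3, 28.6 and 25.9 CPM in the 4 treated sgScramble mice, against 14.9, 15.9 and 14.5 CPM in the 3 vehicle sgScramble mice. The groups did not overlap, and the log2 difference was 0.76 ± 0.12 (SE) with an adjusted p of 0.000991 by edgeR's quasi-likelihood test. Uqcrb footprints were at 130, 174, 147 and 125 CPM in treated sgScramble mice, against 94.1, 82.2 and 94.8 CPM in vehicle sgScramble mice. Again the groups did not overlap, and the difference was 0.67 ± 0.12 (adjusted p = 0.00161). Ndufs6, a zinc-binding accessory subunit of complex I, had 25.6, 32.5, 28.4 and 31.3 CPM in treated sgScramble mice, against 22.3, 20.1 and 19.5 CPM in vehicle sgScramble mice. All treated values lay above all vehicle values, with a difference of 0.51 ± 0.12 (adjusted p = 0.0077). Ndufa5, an accessory subunit of the arm that faces the matrix, had 27.3, 37.8, 28.6 and 34 CPM in treated sgScramble mice, against 23.7, 21.9 and 21.2 CPM in vehicle sgScramble mice. It too showed no overlap, with a difference of 0.52 ± 0.12 (adjusted p = 0.00979). Atp5k had 56.1, 75.1, 60.1 and 50.9 CPM in treated sgScramble mice, against 42.7, 43 and 38.8 CPM in vehicle sgScramble mice. Its groups were separate as well, with a difference of 0.55 ± 0.15 (adjusted p = 0.0259).

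The other footprint increases were smaller or of lower abundance. Atp5s, the coupling factor B protein, had 4.25, 3.34, 3.83 and 3.12 CPM in treated sgScramble mice, against 1.99, 2.37 and 2.23 CPM in vehicle sgScramble mice, with no overlap and a log2 difference of 0.73 ± 0.23 (adjusted p = 0.0431). Atp5g3, another gene of subunit c, rose by 0.38 ± 0.11 (adjusted p = 0.0295), Uqcrh, the complex III hinge protein, by 0.45 (adjusted p = 0.0417), Uqcr10, a small complex III subunit, by 0.40 (adjusted p = 0.041), Atp5mpl, a small proteolipid of complex V, by 0.37 (adjusted p = 0.0413), Ndufa12 by 0.33 (adjusted p = 0.0486) and Atp5l, subunit g, by 0.31 (adjusted p = 0.0473). The catalytic and core subunits had small differences, -0.07 for Atp5b, -0.04 for Atp5a1, 0.03 for Ndufs1 and 0.01 for Cycs.

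The footprint differences of the 4 complex II subunits were negative in sgScramble leukemia, with a median of -0.15 on the log2 scale, whereas the medians of complexes I, III, IV and V were 0.03, 0.11, 0.14 and 0.10; the difference between complexes was not tested. Sdhb had 41.7, 44.4, 34.7 and 36.5 CPM in treated sgScramble mice, against 50.4, 54.4 and 47.3 CPM in vehicle sgScramble mice. All treated values lay below all vehicle values, and the log2 difference was -0.36 ± 0.12 with an adjusted p of 0.0434. Sdha had 113, 116, 102 and 101 CPM in treated sgScramble mice, against 133, 128 and 120 CPM in vehicle sgScramble mice, also without overlap, and its difference of -0.23 did not pass (adjusted p = 0.0921). Sdhc and Sdhd had differences of -0.07 (adjusted p = 0.694) and -0.01 (adjusted p = 0.966). The summed complex II footprint level was 208 ± 19.3 CPM in treated sgScramble mice (SD, n = 4), against 240 ± 10.8 CPM in vehicle sgScramble mice (SD, n = 3). In sgOgfod1 leukemia the sum was 204 and 208 CPM in the 2 treated mice, against 241 ± 4.34 CPM in vehicle mice (SD, n = 3), and all 4 genes had negative differences, none of which passed. Sdhb passed in 8 of the 21 alternative settings run and kept its sign in all 21.

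In sgOgfod1 footprints, 0 of 81 members passed edgeR's test, beside 4.65% of all genes that rose and 3.56% that fell. Unadjusted p was under 0.05 for 18 members, DESeq2 called 0, and the median difference was 0.07. Other settings gave calls, 10 over protein-coding genes alone, 2 with pseudogene counts added and 1 with DESeq2 size factors. This comparison had 2 treated mice. Ndufs6 was nearest, at 31.2 and 26.8 CPM in treated sgOgfod1 mice against 21, 21.8 and 21.3 CPM in vehicle sgOgfod1 mice. Those groups did not overlap, with a log2 difference of 0.44 and an adjusted p of 0.0535. Ndufa5 had a difference of 0.45 (adjusted p = 0.0624), Cox7b, a complex IV subunit, 0.39 (adjusted p = 0.0694) and Cox6c 0.40 (adjusted p = 0.0786). A count of 1 appeared without treated sgScramble replicate 1 or 2. It also appeared without treated sgOgfod1 replicate 4, which leaves 1 treated sgOgfod1 library, assumed to vary like those of the other groups.

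Whether footprints changed apart from RNA was tested as the treatment-by-assay term of 1 edgeR model over the 12 mice with both libraries, with a block for the mouse. For treatment in sgScramble, 0 of 84 members passed, beside 0.93% of all 28606 genes, 14 members had an unadjusted p under 0.05 and DESeq2 called 4. The median was -0.05 and 36 of 84 members were positive. The count was 1 without the mouse vehicle sgOgfod1 replicate 3 or 5 or treated sgOgfod1 replicate 4, and 2 without treated sgScramble replicate 5. Ndufa5 had the smallest p, with a footprint change above its RNA change by 0.58 ± 0.14 on the log2 scale (adjusted p = 0.0564). Ndufa8 ran the other way at -0.53 ± 0.13 (adjusted p = 0.0604), with a level in footprints of 26, 31.8, 26.5 and 30.7 CPM in treated sgScramble mice, against 31, 28.2 and 32.4 CPM in vehicle sgScramble mice. For treatment in sgOgfod1, 0 members passed beside 0.0839% of all genes, 2 had an unadjusted p under 0.05, DESeq2 called 0 and the median was 0.05.

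The effect of the Ogfod1 guide was tested within each treatment. In RNA, 0 of 83 members passed under treatment, beside 0.391% of all genes, and 0 passed under vehicle, beside 0.116%; 1 member in each had an unadjusted p under 0.05, and DESeq2 called 0 in both. The median difference was 0.04 under treatment with 52 of 83 members positive, and 0.14 under vehicle with 75 positive. In footprints, 0 of 81 passed under treatment, beside 1.58% of all genes, and 0 under vehicle, beside 1.81%; 11 members in each had an unadjusted p under 0.05. DESeq2 called 0 under treatment and 2 under vehicle. The nearest under vehicle were Ndufa2, an accessory complex I subunit, and Cox8a, a small widespread subunit of complex IV. Ndufa2 had 14, 17.7 and 20.1 CPM in vehicle sgOgfod1 footprints, against 24.2, 28 and 25.6 CPM in vehicle sgScramble footprints, with a log2 difference of -0.58 ± 0.15 (adjusted p = 0.0583). Cox8a had 27.1, 20.2 and 25.7 CPM in vehicle sgOgfod1 footprints, against 35, 36.6 and 32.8 CPM in vehicle sgScramble footprints, with a difference of -0.51 ± 0.14 (adjusted p = 0.0714). Neither pair of groups overlapped. Across genes, the footprint difference between genotypes under vehicle had a Spearman correlation with coding length of 0.272, and its part in these values was not tested. A count of 1 appeared in the vehicle footprints without vehicle sgOgfod1 replicate 5, treated sgScramble replicate 5, or treated sgOgfod1 replicate 4 or 5, and 2 appeared under treatment without treated sgScramble replicate 5.

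For the ratio of footprints to RNA, 0 of 84 members passed between genotypes under treatment, beside 0.0489% of all genes, and 0 under vehicle, beside 0.0594%; 6 and 11 members had an unadjusted p under 0.05, and DESeq2 called 1 and 0. Under treatment 1 call appeared without treated sgScramble replicate 5. The medians were -0.13 under treatment and -0.20 under vehicle, with 27 and 11 of 84 members positive. Over 80 members the median log2 ratio under vehicle was -1.31 in sgOgfod1 and -1.10 in sgScramble mice. Over 11054 protein-coding genes it was -1.56 and -1.52. Among genes of 297 to 636 coding bases, the genotype difference in vehicle footprints had a median of -0.08 in members and -0.11 in others. Whether any shift is particular to the members was not tested. The difference of the treatment effect between genotypes was not detected for any member by edgeR. In RNA 0 of 83 passed, beside 0% of all genes, with 0 at an unadjusted p under 0.05. In footprints 0 of 81 passed, beside 0.0656%, with 3 at an unadjusted p under 0.05, and for the ratio 0 of 84 passed, beside 0%, with 6. DESeq2 called 0 members in each of these 3 tests. The larger number of RNA calls in sgScramble than in sgOgfod1 leukemia is therefore not shown to be a difference between genotypes.

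Within the group, baseline levels covered a wide range. Per kilobase of coding sequence, vehicle sgScramble RNA was highest for Atp5j, coupling factor 6 of complex V, at 1359 CPM per kb, followed by Uqcrb at 1052, Atp5mpl at 832, Ndufa4 at 773 and Atp5g3 at 766 CPM per kb. Among widely expressed subunits it was lowest for Atp5g2, the remaining gene of subunit c, at 16.3 CPM per kb, Ndufv1 at 38.6 and Ndufv3 at 39.2. RNA reads also cover untranslated parts, so this order depends on coding length as the divisor. Atp5j has 324 coding bases in a transcript of 809, and Uqcrb 333 in 535. Isoforms known from muscle, heart, lung or testis were scarce: the RNA level in treated sgScramble mice averaged 1.03 CPM for Cox6a2, 1.57 for Cox7a1, 6.70 for Cox6b2 and 0.113 for Cox4i2, against 0.216, 1.04, 8.46 and 0.162 CPM in vehicle sgScramble mice.

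The log2 ratio of footprint to RNA CPM in vehicle sgScramble mice had a median of -1.10 over 80 members, against -1.52 over 11054 protein-coding genes. By complex, the median was -0.73 for complex V, -1.22 for complexes I and IV, -1.25 for complex III and -1.69 for complex II. Between genes, these values also depend on length and on reads shared with similar sequences. The medians are therefore not a comparison of translation alone. The ratio was highest for Atp5g2 at 3.02 ± 0.08, Ndufs7, a core iron-sulphur subunit of complex I, at 2.28 ± 0.26, Atp5l at 1.54 ± 0.25 and Cox7c, a complex IV subunit, at 1.09 ± 0.14 (SD, n = 3). It was lowest for Atp5s at -3.69 ± 0.18, Sdhd at -3.00 ± 0.27, Ndufb6, an accessory subunit of complex I, at -2.59 ± 0.06 and Atp5j at -2.37 ± 0.23. Ndufs7 footprints varied between mice, at 119 to 288 CPM in treated and 196 to 243 CPM in vehicle sgScramble mice. The pseudogene search below found 0 matches for Ndufs7.

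Many members have pseudogenes of similar sequence, and the 2 assays counted them differently. Counting pseudogenes that matched a member over at least 100 bases at 80% identity or more, 50 members had at least 1 and the total was 138. In 28 members over 25% of the combined footprint counts stood on the pseudogenes, whereas in RNA 0 members exceeded 25% and the highest was Atp5g1 at 8.86%. The footprint share was 88.2% for Atp5l, which has 20 such pseudogenes, 71.5% for Cox7c, 68.2% for Atp5g2, 61.1% for Uqcrb, 44.9% for Ndufa12, 35.5% for Atp5k, 35.1% for Ndufs6 and 29.7% for Ndufc1. How short footprint reads were divided among these copies is not given in the sources used here, so the footprint levels of these members are uncertain. With pseudogene counts added to their member, the sgScramble footprint calls were 11 in place of 13, and Ndufc1, Uqcrb, Ndufs6 and Ndufa5 all passed.

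**Figure D4:**
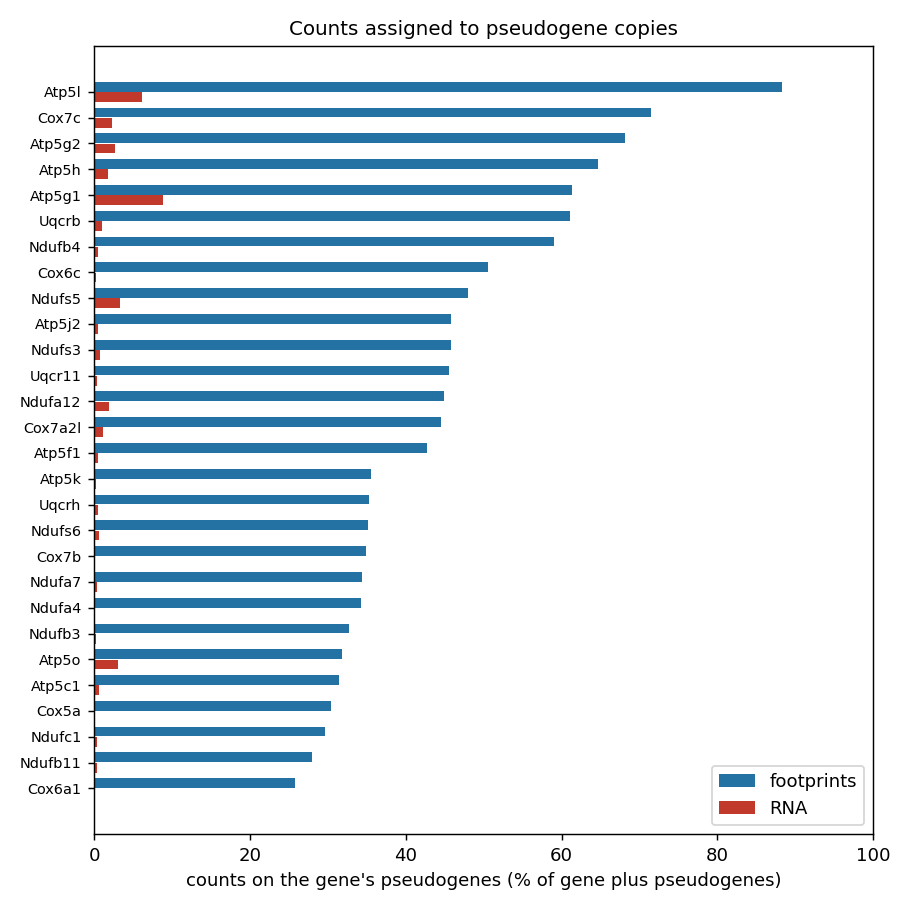
Percent of each member's combined counts that stood on its pseudogenes, along the horizontal axis, for the 28 members whose footprint share is over 25%; blue bars are footprints and red bars RNA. Footprint shares reach 88.2% (Atp5l), whereas no RNA share is above 8.86% (Atp5g1).

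Coding length moved with the RNA result. The tested members have a median coding length of 423 bases, against 1356 bases over the protein-coding genes tested, and across genes the RNA difference under treatment had a Spearman correlation with coding length of -0.261 in sgScramble and -0.303 in sgOgfod1 leukemia. Genes are not independent replicates, and this is a description. In each library, the log2 level of each gene relative to its mean over all libraries was correlated with coding length. The sign is thus relative to the other libraries. This correlation was lowest in the pair that stood apart, at -0.439 in treated sgOgfod1 replicate 3 and -0.314 in treated sgScramble replicate 4. It was -0.198 to 0.0215 in the other treated sgOgfod1 libraries and -0.144 to 0.263 in the other treated sgScramble libraries, against 0.138 to 0.241 in vehicle sgOgfod1 and 0.124 to 0.313 in vehicle sgScramble libraries. With the length trend removed from the RNA counts, 15 members were called in sgScramble leukemia, with a median of 0.22 against 0.04 over all genes, and 1 in sgOgfod1 leukemia, with a median of 0.11. For single calls in sgScramble RNA, this fit is among the 35 alternatives counted in the closing section. Whether length or RNA quality caused any call was not tested.

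The libraries came from viable GFP+ sorted cells, a gate that should remove host cells without GFP. Markers of macrophages and neutrophils nonetheless rose with treatment. In sgScramble RNA, 14 of 15 macrophage markers rose, with a summed level of 642 to 5397 CPM in treated mice, against 576 to 766 CPM in vehicle mice. Neutrophil markers rose for 11 of 14, with a sum of 15649 to 53668 CPM in treated mice, against 6807 to 12903 CPM in vehicle mice. Leukemia-defining markers summed to 2055 to 4589 CPM in treated mice, against 3137 to 3519 CPM in vehicle mice. Their footprint sums were 1511 to 2095 CPM in treated and 1204 to 1326 CPM in vehicle sgScramble mice, without overlap. For sgOgfod1 mice these footprint sums overlapped, at 1132 to 1641 CPM in treated and 1352 to 1894 CPM in vehicle mice. In sgOgfod1 RNA, macrophage markers rose for 9 of 15, with sums of 597 to 1743 CPM in treated mice, against 487 to 644 CPM in vehicle mice, and neutrophil markers for 10 of 14, with sums of 18166 to 83263 CPM, against 6863 to 16919 CPM. In sgScramble footprints, macrophage markers rose for 10 of 12, with sums of 192 to 325 CPM in treated mice, against 163 to 178 CPM in vehicle mice, and neutrophil markers rose for 8 of 14 and fell for 1, with sums of 8360 to 18394 CPM, against 5025 to 5625 CPM. Erythroid markers fell for 6 of 10 in sgOgfod1 RNA and, in sgScramble RNA, rose for 1 and fell for 1. Their RNA sums were 1.47 to 4.30 CPM in treated sgOgfod1 mice, against 11.0 to 26.5 CPM in vehicle sgOgfod1 mice. They were 1.64 to 8.98 CPM in treated and 1.33 to 3.99 CPM in vehicle sgScramble mice. The vehicle sgOgfod1 group was thus the high group in RNA, and its RNA sums did not overlap those of vehicle sgScramble mice. In footprints the vehicle sums overlapped, at 54.1 to 108 CPM in sgOgfod1 and 30.6 to 135 CPM in sgScramble mice. No marker of these lists was at 0 counts in every library of an assay. Whether these markers came from the leukemia or from other cells, and their part in the members' differences, was not tested.

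**Figure D5:**
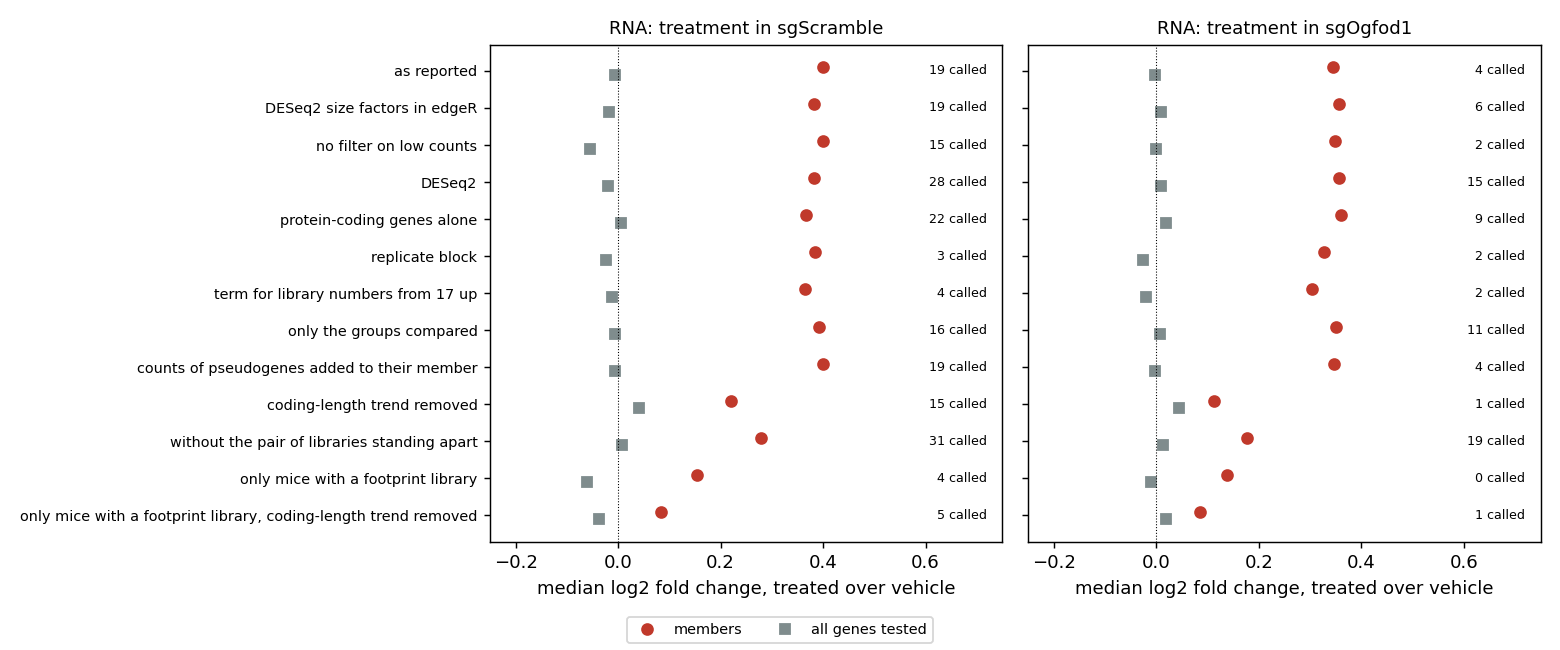
Median log2 difference in RNA between treated and vehicle mice (horizontal axis) of the members, as red circles, and of all genes tested, as grey squares, under each alternative setting, with the number of members called printed beside it. The member median in sgScramble leukemia was 0.40 as reported, 0.22 with the coding-length trend removed, 0.28 without the pair of libraries that stood apart and 0.15 in mice with a footprint library.

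Genes that serve the same complexes were read beside the members. Of 52 assembly factors tested in sgScramble RNA, 5 rose and 0 fell, beside 8.6% of all genes that rose and 4.34% that fell. Uqcc2 (log2 difference 0.78) serves complex III, and Pet100 (0.71) and the copper chaperone Cox17 (0.65) serve complex IV. The others were Sdhaf1 (0.65) and Sdhaf2 (0.43) for complex II. The median of the 52 was 0.15. The footprint to RNA ratio of Ndufaf4, for complex I, rose in sgScramble leukemia by 0.83 (adjusted p = 0.0468). In sgOgfod1 RNA 2 rose, Uqcc2 (0.66) and Coa3 (0.77), beside 5.69% of all genes. In sgScramble footprints Ndufaf4 rose by 0.86 and Dmac2 fell by 0.69, and in sgOgfod1 footprints Cox17 rose by 0.53 and Sco1, another copper chaperone, fell by 0.56. Of all genes, 8.12% rose and 7.44% fell in sgScramble footprints, and 4.65% rose and 3.56% fell in sgOgfod1 footprints.

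Of 22 genes of the citric acid cycle and of electron entry, 2 rose in sgScramble RNA, beside 8.6% of all genes. They were Mdh2, mitochondrial malate dehydrogenase (1.02), and Pdha1, of pyruvate dehydrogenase (0.44). In sgScramble footprints Etfb rose by 0.35, and the isocitrate dehydrogenase genes Idh2 and Idh3g fell by 0.55 and 0.38; Idh2 also fell in sgOgfod1 footprints, by 0.49. Of 20 regulators of respiratory genes and mitochondrial DNA tested in RNA, 0 passed edgeR's test in sgScramble leukemia, and 4 had an unadjusted p under 0.05. Polrmt, the mitochondrial RNA polymerase, fell by 0.60 in sgOgfod1 RNA and by 0.69 in sgScramble footprints, and Ssbp1 rose by 0.62 in sgOgfod1 footprints.

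The partners of these subunits that mitochondrial DNA encodes had negative RNA medians. In RNA, mt-Nd5 fell by 0.78 in sgScramble leukemia, the only 1 of 11 genes tested that passed, with a list median of -0.47. In sgOgfod1 leukemia mt-Nd5 fell by 1.09, mt-Nd6 by 0.86 and mt-Nd4 by 0.65, with a median of -0.65. Of all genes, 4.34% fell in sgScramble RNA and 4.18% in sgOgfod1 RNA. In footprints 0 of 13 passed edgeR's test in sgScramble leukemia (median 0.07, and 0 with an unadjusted p under 0.05), and 4 fell in sgOgfod1 leukemia (median -0.93), mt-Nd5 by 1.22, mt-Cytb by 1.16, mt-Co1 by 0.88 and mt-Co3 by 0.85. Of all genes, 7.44% fell in sgScramble footprints and 3.56% in sgOgfod1 footprints.

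Features of the members that could bear on a diet free of leucine, isoleucine and valine were compared with the differences. Codons for these amino acids made up a median of 20.56% of the members' coding sequence, against 20.62% over the protein-coding genes tested in both assays. The share was 24.02% in complex II, 23.77% in complex V, 19.77% in complex IV, 19.51% in complex III and 19.44% in complex I. Across members, its Spearman correlation with the footprint difference was 0.02 in sgScramble and 0.07 in sgOgfod1 leukemia, and with the RNA difference -0.18 and -0.25. The total number of codons, a measure of length, had a correlation of -0.42 and -0.37 with the footprint differences and of -0.38 and -0.30 with the RNA differences. Members with an NRF1 match in the promoter had a median RNA difference of 0.47 in sgScramble leukemia with 5 of 24 called, against 0.38 with 9 of 41 called for members without one. In footprints, 7 of 24 members with a match rose and 0 fell, against 2 of 40 that rose and 1 that fell without one; the difference between these shares was not tested.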

How the data were processed

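RNA and ribosome footprints were sequenced from sorted leukemia cells of 35 libraries, 23 of RNA and 12 of footprints, each from 1 mouse per the labels. Smart-seq2 RNA libraries used 2 µl of each 20 µl lysate, and footprints the rest. The authors deposited raw counts per gene, and the submitters' processing notes name cutadapt, Bowtie2, STAR, SAMtools, featureCounts and GRCm38 (mm10). Strand setting, versions and the handling of multimapping reads are not given in the sources used here. The footprint columns spell the assay RPF where the labels have RFP.

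Counts were filtered with filterByExpr, scaled by TMM and tested with edgeR 4.0.16 (quasi-likelihood, robust; R 4.3.3) over all genes of an assay in 1 model of 4 groups, with Benjamini-Hochberg adjustment and a threshold of 0.05. The ratio model covered 12 mice and left 8 residual degrees of freedom. DESeq2 1.42.0, other filters and scalings, and leaving out each library were alternatives. Length trends were removed through offsets (lowess span 0.3), and pseudogenes were found with BLAST 2.17.0. Adding pseudogene counts, and footprint mice with length removed, were alternatives chosen after seeing the data. Members and gene lists were chosen with earlier results of these data known. Named genes were the 4 smallest p per complex and assay in sgScramble, the 4 smallest elsewhere, those called, and the 4 extreme ratios. The tests were checked on simulated counts. Sequences are from RefSeq.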

Additional observations from a re-analysis of the deposited data

Results flagged for a closer look

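In groups of 4 to 10 libraries, the highest or lowest library was set against the nearest of the others by Dixon's criterion at the 95% level, and chance picks about 1 in 20 groups. It picked 11 of 35 groups of complex sums and 34 of 150 groups of called members. All values are CPM, and most belong to the pair of RNA libraries named in the report.

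Treated sgOgfod1 replicate 3 stood highest of its RNA group for the sum of all members at 19531 (nearest other 14448), complex I at 5834, complex III at 2593, complex IV at 3356 and complex V at 6338. It also stood highest for Ndufa8 at 120.6, Ndufa11 at 95.1, Ndufa13 at 177.0, Ndufb7 at 129.5, Ndufb9 at 291.7 and Ndufs6 at 140.8 in complex I, and for Uqcr10 at 239.6 and Uqcrq at 175.7 in complex III. In complex IV it stood highest for Cox5a at 476.9, Cox6b1 at 334.2, Cox6c at 338.2 and Cox7a2 at 316.8, and in complex V for Atp5e at 129.0, Atp5g1 at 146.2, Atp5g3 at 517.4, Atp5k at 93.0 and Atp5l at 55.3.

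Treated sgScramble replicate 4 stood highest of its RNA group for all members at 20087 (nearest other 14149), complex I at 5997, complex III at 2774 and complex IV at 3359. Its single members were Ndufa8 at 141.3, Ndufa11 at 85.6, Ndufa12 at 131.8, Ndufa13 at 185.5, Ndufb4 at 52.8, Ndufb7 at 133.0, Ndufb9 at 307.0, Ndufc1 at 157.6 and Ndufv3 at 177.8 in complex I. They were also Sdhb at 356.6 in complex II, Uqcr10 at 219.8 and Uqcrq at 197.8 in complex III, and Cox5a at 592.6 in complex IV.

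The other libraries picked were fewer. Vehicle sgOgfod1 replicate 5 was lowest in RNA for complex I at 2840 and complex II at 923. Vehicle sgScramble replicate 2 was highest in RNA for Cox6b1 at 180.6 and Cox6c at 212.2. Treated sgScramble replicate 5 was lowest in footprints for Cox6b1 at 56.7 and Uqcr10 at 28.9.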

How the results depend on the processing

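Counts below are members called at an adjusted p under 0.05. For treatment in sgScramble RNA (19 as reported) the count was 3 with a replicate block (Atp5e, Ndufb7 and Ndufv3), 4 with a term for library numbers from 17 up, 31 without the pair of libraries standing apart, 4 in mice with a footprint library and 5 in those mice with the length trend removed, and 6 to 38 when single libraries were left out. For treatment in sgOgfod1 RNA (4) it was 2 with the replicate block, with the library-number term and with no filter, 15 with DESeq2, 9 over protein-coding genes alone, 1 with the length trend removed, 11 with the compared groups alone, 19 without the pair, 0 in mice with a footprint library, 1 in those mice with length removed, and 1 to 22 when single libraries were left out. For treatment in sgScramble footprints (13) it was 8 with no filter and 22 over protein-coding genes, and 4 to 14 without single libraries. For treatment in sgOgfod1 footprints (0) it was 1 with DESeq2 size factors, 10 over protein-coding genes and 2 with pseudogenes added, and 0 to 1 without single libraries. For genotype in footprints (0) it was 2 under vehicle with no filter, with DESeq2 and with the compared groups alone, and 1 over protein-coding genes; without single libraries it was 0 to 2 under treatment and 0 to 1 under vehicle. For genotype under treatment in RNA (0) it was 1 in footprint mice with length removed. For the ratio in sgScramble (0) it was 1 with DESeq2 size factors and with pseudogenes added, 2 with no filter, 4 over protein-coding genes and with DESeq2, and 0 to 2 without single libraries. For the ratio by genotype under treatment (0) it was 1 with no filter, over protein-coding genes and with DESeq2, and 0 to 1 without single libraries. The cause was not tested, except that smaller sets hold fewer samples.

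Replicate numbers do not pair the mice: deviations of same-numbered libraries correlated over genes at -0.313 to 0.619 in RNA, over 0.1 in 5 of 31 pairs, and in 0 of 11 footprint pairs. Over the 36 calls of single members, counted per assay and comparison, and their alternatives, 793 values stayed past the threshold in the same direction, 285 did not pass, and 0 reversed. Ndufv3 passed in all 35 RNA alternatives for sgScramble, Atp5e in 34, Ndufa8 and Ndufb7 in 33, Cyc1 in 17, Ndufa11 in 15 and Ndufa12 in 13. Ndufc1, Uqcrb, Ndufs6 and Ndufa5 passed in all 21 footprint alternatives for sgScramble, and Atp5l, Atp5mpl, Atp5s and Ndufa12 in 10 each. The difference of treatment effects was not run with the compared groups alone, since it needs all groups. Wherever a treated sgOgfod1 footprint library was left out, the 1 that remained was assumed to vary like those of the other groups.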
